A study of Rattus norvegicus with 12 samples.

Results

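The 37 genes described here make and use glutathione or remove peroxides and superoxide, together with the transcription factor NRF2 (gene Nfe2l2) and its inhibitor Keap1. They were picked by symbol from a table of 25252 genes measured in rat dorsal root ganglia. Of the 37 symbols, 36 were found, under 37 gene IDs because Gstm5 stands under 2. Both Gstm5 entries are listed at 0 in all 12 libraries, Gpx3 is not analysed here, and the other 35 genes passed the filter on low values and were tested.

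Dorsal root ganglia hold the cell bodies of sensory neurons, wrapped by satellite glia, with Schwann cells, fibroblasts, vessels and macrophages around them. All 12 samples came from Sprague Dawley rats with the genotype given as Wild, 4 biological replicates in each of 3 groups, and the labels give no age. The first group had cisplatin, a platinum chemotherapy drug that damages sensory nerves, together with CYM-5478, which activates S1P2, a receptor for the lipid mediator sphingosine 1-phosphate. CYM-5478 was given daily from day -1 to day 20, at 0.1 mg/kg by the sample labels and 1 mg/kg by the treatment protocol. The second group had cisplatin alone, and in both groups cisplatin was injected intraperitoneally at 3 mg/kg on days 0, 7 and 14. The third group had the vehicle, saline with Tween 20 (labelled 0.1, with no unit) and 1% DMSO. CYM-5478 was never given alone, so its own action and its action on the cisplatin response cannot be told apart. The series asks whether S1P2 activation protects against cisplatin neuropathy. Whether ganglia of several rats were pooled for a sample is not given in the sources used here.

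Glutathione is a tripeptide built by glutamate-cysteine ligase, a heterodimer of a catalytic subunit (Gclc) and a modifier subunit (Gclm), and by glutathione synthetase (Gss). Peroxidases spend it on peroxides, glutathione transferases couple it to electrophiles, and it also binds platinum drugs. In stressed cells NRF2 escapes KEAP1, enters the nucleus and binds antioxidant response elements at genes such as Hmox1, Nqo1, Gclc and Gclm, so these transcripts are commonly read as a measure of NRF2 activity.

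The core of the antioxidant response element, TGACNNNGC or its reverse complement GCNNNGTCA, was searched in RefSeq promoter windows of the GRCr8 build, from 250 bases before to 50 after each start. Of the 37 symbols, 31 were in that table, and 9 of them (29.0%) had a match, against 13.1% of the 27457 genes in the table and 12.1% of its 33469 promoters. The 9 were Gclm, Gstp1, Prdx1, Txnrd1, Sod2, Prdx5, Gstm5, Nfe2l2 and Prdx4. A match is a string of letters and not a measured binding site, and no match says only that these letters are not in the window. The 3 windows below are shown because their genes went different ways with cisplatin, each with its match in capitals. Gclm, which fell, has GCTTAGTCA starting 172 bases before its start (chr2:213031885-213032184, plus strand). Gstp1, which rose, has TGACTCAGC starting 61 bases before its start (chr1:210769656-210769955, minus strand). Prdx1, which did not pass the test in any comparison, has GCTGAGTCA starting 135 bases before its start (chr5:135383656-135383955, plus strand).
Gclm: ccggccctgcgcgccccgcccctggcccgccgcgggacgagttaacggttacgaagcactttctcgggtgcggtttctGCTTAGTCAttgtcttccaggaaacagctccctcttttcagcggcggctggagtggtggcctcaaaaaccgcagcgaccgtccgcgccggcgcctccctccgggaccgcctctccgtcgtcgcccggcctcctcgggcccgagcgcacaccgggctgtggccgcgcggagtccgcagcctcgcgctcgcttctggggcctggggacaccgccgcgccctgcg
Gstp1: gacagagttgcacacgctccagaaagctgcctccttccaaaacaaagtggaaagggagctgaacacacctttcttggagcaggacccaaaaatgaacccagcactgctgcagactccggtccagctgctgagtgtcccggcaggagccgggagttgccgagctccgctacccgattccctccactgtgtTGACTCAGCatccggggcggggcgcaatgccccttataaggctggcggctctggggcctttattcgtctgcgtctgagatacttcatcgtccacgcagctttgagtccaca
Prdx1: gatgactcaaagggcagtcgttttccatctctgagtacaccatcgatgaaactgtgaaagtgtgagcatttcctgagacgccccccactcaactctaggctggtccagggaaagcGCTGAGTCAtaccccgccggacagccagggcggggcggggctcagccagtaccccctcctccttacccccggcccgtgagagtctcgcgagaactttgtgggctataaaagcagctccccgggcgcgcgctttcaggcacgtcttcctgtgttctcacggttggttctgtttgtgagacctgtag

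Values are the authors' FPKM (fragments scaled by transcript length and library total), summed over the transcripts of a gene and scaled between libraries by factors of 0.998 to 1.012. The log2 changes were computed after adding 0.5 FPKM, so they understate the change of low genes. They come with a standard error (SE) and a Benjamini-Hochberg adjusted p from limma over all 16753 genes tested, and an adjusted p under 0.05 is called here. Errors of means are SD with n = 4 a group. Deposited values summed to 605561 ± 13977 FPKM with cisplatin and CYM-5478, 657441 ± 14837 FPKM with cisplatin and 602054 ± 7058 FPKM with vehicle (exact permutation, two-sided, p = 0.0286 for cisplatin against vehicle and for CYM-5478 against cisplatin, the smallest possible with 4 against 4). Read depth in absolute terms is unknown. Relative to vehicle replicate 1, the spacing of low values gave a depth of 1.53 for CYM-5478 replicate 2 and of 0.889 to 1.17 for every other library. All 18 pan-neuronal markers of the list used were detected in every library, as were the 13 satellite glia and 15 Schwann cell markers.

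By mean FPKM over the 12 libraries, 9 of the 35 genes were above 100 and 3 were below 10. Thioredoxin (Txn1), a small protein that reduces disulfides, was highest with 661 FPKM, followed by Prdx2 (319.6), Sod1 (256) and Prdx1 (199.9). The lowest were the cystine importer subunit Slc7a11 with 3.91 FPKM and sulfiredoxin Srxn1, which reactivates oxidised peroxiredoxins, with 6.16 FPKM. The highest of the 12 libraries was 1.14 to 2.81 times the lowest of them, with a median over genes of 1.40 times. The antioxidant genes differed far more from each other in level than any of them did between rats or groups.

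Few of these genes passed the test with cisplatin, and the estimated changes were small. Against vehicle, 3 glutathione transferases rose (Gstm2, Gstp1 and Gstt1), Gclm fell, and 31 of 35 genes did not pass the test. That is 4 of 35 (11.4%), near the 10.7% called among all 16753 genes (2.73% higher and 7.98% lower). At an unadjusted p under 0.05 there were 17 of 35, a larger share than the 28.4% of all genes (4765 of 16753). The log2 changes of the 35 ran from -0.38 to 0.40, with a median of 0.02, the same as over all genes tested (0.02). Of the 35 genes, 20 had a change within 0.2 of 0 and 29 had a 95% interval that lay within 0.5 of 0 on the log2 scale. Rescaling to TPM gives all libraries the same total and moved the median log2 change of all genes by -0.11, to -0.09. It gave 0 higher and 9 lower calls among the 35, of which Gclm was the 1 shared call, and 117 higher and 3177 lower among all genes. With CYM-5478 added to cisplatin, Gclm rose against cisplatin alone and Gsta4, Gpx7 and Sod3 fell. That is again 4 of 35 (11.4%), against 5.62% of all genes (4.53% higher and 1.09% lower). At an unadjusted p under 0.05 there were 12 of 35, a larger share than the 24.6% of all genes (4122 of 16753). In TPM, which moved the median of all genes by 0.10 here, this comparison gave 8 higher and 1 lower, with 2 of the calls shared, Gclm and Gsta4, and 2525 higher and 49 lower among all genes. These counts changed when single libraries were left out, in fits that also hold fewer samples. That for cisplatin against vehicle was 0 without vehicle replicate 2 or cisplatin replicate 4, 1 without vehicle replicate 1 or 3 and 2 without cisplatin replicate 1. Over all genes, 3 were called without vehicle replicate 2 and 0 without cisplatin replicate 4. Without vehicle replicates 1 and 3 and cisplatin replicate 1 these were 1284, 1169 and 776. The count of the 35 for CYM-5478 against cisplatin was 0 without vehicle replicate 1, cisplatin replicate 1 or 4, or CYM-5478 replicate 2, 3 or 4, and 2 without vehicle replicate 3. Over all genes it was 0 in the former fits and 436 without vehicle replicate 3. Against vehicle, rats given cisplatin with CYM-5478 had 0 called of 35 by limma (0% of all genes, 0 of 16753). At an unadjusted p under 0.05 there were 5 of the 35 genes, a larger share than the 5.79% (970) of all genes. The comparisons with cisplatin share the same 4 cisplatin libraries, so a gene that lies apart in those libraries appears in both of them with opposite signs.

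**Figure D1:**
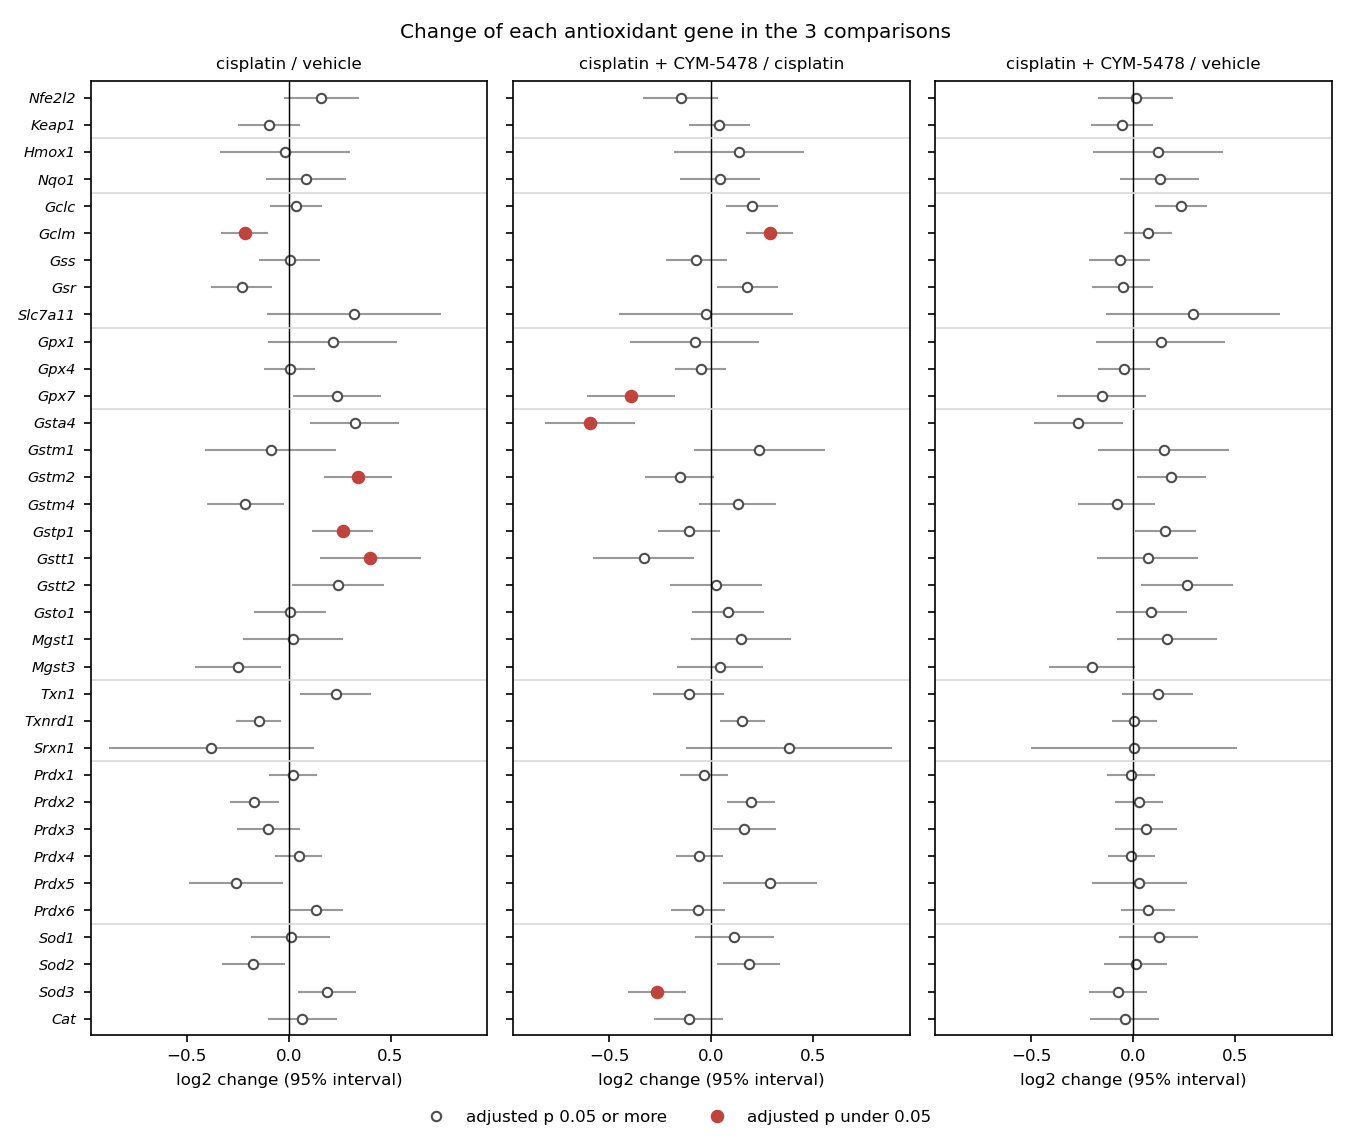
Log2 change with its 95% interval for each of the 35 tested genes, grouped by role from top to bottom, in cisplatin against vehicle, cisplatin with CYM-5478 against cisplatin, and cisplatin with CYM-5478 against vehicle. Filled red points have an adjusted p under 0.05, 4 in each of the first 2 panels and 0 in the third panel, and most of the intervals cross or come close to 0.

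The regulators Nfe2l2 and Keap1 and the NRF2 targets Hmox1 and Nqo1 did not pass the test in any comparison. Of these 4 genes, 0 had an unadjusted limma p under 0.05. Over all genes the share was 28.4% for cisplatin against vehicle, 24.6% for CYM-5478 against cisplatin and 5.79% for CYM-5478 against vehicle. The NRF2 targets Gclc and Gclm are given below with the enzymes that make glutathione, and Gclm was called. Nfe2l2 (ENSRNOG00000001548) had 31.6, 24.6, 25.5 and 30.3 FPKM with cisplatin and CYM-5478, 33.3, 28.3, 30.6 and 31.6 FPKM with cisplatin, and 27.8, 26.0, 27.1 and 29.6 FPKM with vehicle. The 3 groups overlapped, and cisplatin replicate 1 was the highest library. The change with cisplatin against vehicle was 0.16 (SE 0.0841, limma adjusted p = 0.236), and with CYM-5478 against cisplatin -0.15 (adjusted p = 0.301). Keap1 (ENSRNOG00000020878), the adaptor that hands NRF2 to a ubiquitin ligase, had 17.8, 19.7, 19.1 and 17.0 FPKM with cisplatin and CYM-5478, 17.4, 18.7, 18.6 and 16.7 FPKM with cisplatin, and 19.5, 21.1, 17.5 and 18.4 FPKM with vehicle. Its groups overlapped as well, with a change of -0.10 with cisplatin (SE 0.069, adjusted p = 0.39) and 0.04 with CYM-5478 (adjusted p = 0.752).

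Hmox1 (ENSRNOG00000014117) encodes heme oxygenase 1, which degrades heme and is among the most inducible NRF2 targets. It had 12.5, 15.5, 10.9 and 10.0 FPKM with cisplatin and CYM-5478, 9.71, 11.2, 9.43 and 13.8 FPKM with cisplatin, and 11.1, 10.6, 13.0 and 9.77 FPKM with vehicle. High and low libraries occurred in each group. The change with cisplatin was -0.02, with a 95% interval from -0.33 to 0.30 (adjusted p = 0.959), and with CYM-5478 against cisplatin 0.14, with an interval from -0.18 to 0.46 (adjusted p = 0.595). Nqo1 (ENSRNOG00000012772), a quinone reductase, had 25.7, 29.6, 28.8 and 28.1 FPKM with cisplatin and CYM-5478, 25.8, 28.3, 30.9 and 23.9 FPKM with cisplatin, and 25.1, 26.9, 22.3 and 28.3 FPKM with vehicle. The groups overlapped throughout, with a cisplatin change of 0.08 and an interval from -0.11 to 0.28 (adjusted p = 0.573). The intervals of both genes leave room for changes of either sign, so they bound the response of these transcripts and do not show that it was nil.

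Of the enzymes that make glutathione, Gclm passed the test. Gclm (ENSRNOG00000013409) had 39.8, 41.0, 41.7 and 42.5 FPKM with cisplatin and CYM-5478, 33.0, 33.3, 35.3 and 33.1 FPKM with cisplatin, and 40.2, 42.1, 39.5 and 35.4 FPKM with vehicle. Every cisplatin library lay below every library of both other groups, although cisplatin replicate 3 and vehicle replicate 4 were close. Gclm fell with cisplatin to 33.7 ± 1.08 FPKM, against 39.3 ± 2.79 FPKM with vehicle, by 0.22 on the log2 scale (SE 0.0536, adjusted p = 0.0293). With CYM-5478 it averaged 41.2 ± 1.16 FPKM and was higher than with cisplatin alone by 0.29 (SE 0.0536, adjusted p = 0.0395). It is the 1 gene of the 35 called in both comparisons, which share the cisplatin libraries. Leaving out any of vehicle replicates 1, 2 and 3 or cisplatin replicates 1 and 4 ended the call of its fall, at adjusted p from 0.0568 to 0.0919. Leaving out any of vehicle replicate 1, cisplatin replicates 1 and 4 or CYM-5478 replicates 2, 3 and 4 ended that of its rise, at adjusted p from 0.0535 to 0.126. In each fit that ended the call of the rise, 0 of all genes were called for that comparison. The log2 change stayed between -0.26 and -0.18 for the fall and between 0.27 and 0.31 for the rise when single libraries were left out.

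Gclc (ENSRNOG00000006302), the catalytic partner of Gclm, had 17.1, 19.1, 16.9 and 17.3 FPKM with cisplatin and CYM-5478, 14.9, 14.8, 15.5 and 15.7 FPKM with cisplatin, and 13.6, 14.7, 15.4 and 15.7 FPKM with vehicle. The 4 CYM-5478 libraries were above all 8 others, while the cisplatin and vehicle libraries overlapped. None of these differences passed the test: 0.20 with CYM-5478 against cisplatin (adjusted p = 0.0645), 0.24 against vehicle (95% interval 0.11 to 0.36, adjusted p = 0.697) and 0.03 with cisplatin against vehicle (adjusted p = 0.741). Gsr encodes glutathione reductase, which regenerates glutathione with NADPH. It averaged 33.1 ± 1.93 FPKM with cisplatin and CYM-5478, 29.2 ± 2.48 FPKM with cisplatin and 34.3 ± 1.81 FPKM with vehicle. Its cisplatin libraries (25.6 to 31.2 FPKM) lay below the vehicle libraries (32.3 to 35.9 FPKM), with a change of -0.23 that did not pass the test (adjusted p = 0.0525). Gss had a change of 0.01 with cisplatin (adjusted p = 0.968), and Slc7a11, which brings in the cystine for glutathione, one of 0.32 with a wide interval from -0.11 to 0.75 (adjusted p = 0.311).

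**Figure D2:**
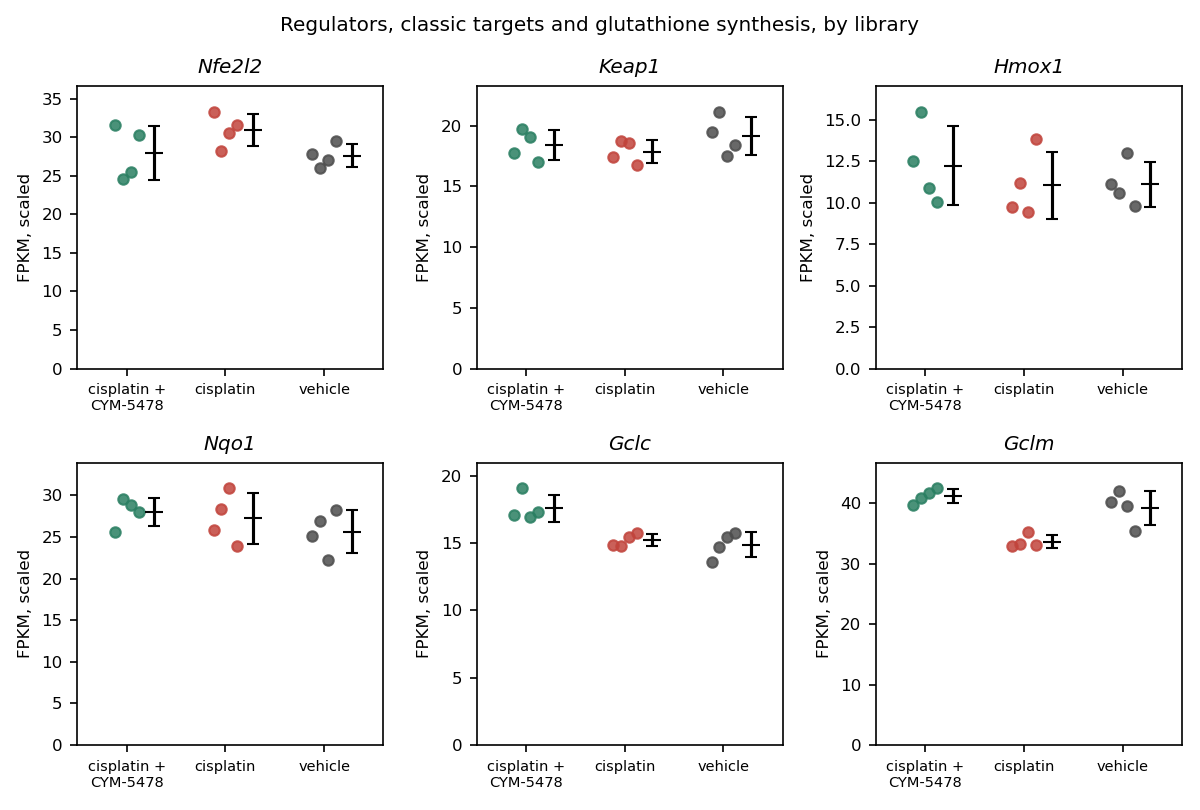
Scaled FPKM of Nfe2l2, Keap1, Hmox1, Nqo1, Gclc and Gclm in each library of the 3 groups, with the group mean and SD (n = 4) as black bars and each axis starting at 0. The groups overlap for the first 4 genes, the 4 CYM-5478 libraries are highest for Gclc (16.9 to 19.1 FPKM), and the 4 cisplatin libraries are lowest for Gclm (33.0 to 35.3 FPKM).

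The 3 rises with cisplatin were glutathione transferases. Of the 10 tested, 3 rose and 0 fell, against 2.73% of all genes higher and 7.98% lower, and 7 of the 10 changes were positive, as were 9000 of the 16753 over all genes. In TPM 0 rose and 2 fell, against 117 higher and 3177 lower of all 16753 genes, and 5 changes were positive. Gstm2 (ENSRNOG00000019094), of the mu class, had 98.7, 90.8, 100.2 and 86.1 FPKM with cisplatin and CYM-5478, 102, 99.7, 112 and 104 FPKM with cisplatin, and 87.3, 78.2, 72.9 and 92.2 FPKM with vehicle. All cisplatin libraries were above all vehicle libraries, and the CYM-5478 libraries lay between and across them. The change with cisplatin was 0.34 (1.27-fold, SE 0.0774, adjusted p = 0.0228), and that with CYM-5478 against cisplatin was -0.15 (adjusted p = 0.244). The mu class has near-identical copies between which the authors' quantification could split reads, so values of Gstm1, Gstm2 and Gstm4 are uncertain in that respect. Without vehicle replicate 2 or cisplatin replicate 4 the call of Gstm2 ended, at adjusted p from 0.0596 to 0.0766, and in TPM its change was 0.22 (adjusted p = 0.0968).

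Gstp1 (ENSRNOG00000018237), the pi class enzyme known in tumour cells for coupling platinum and other drugs to glutathione, had 147, 153, 169 and 165 FPKM with cisplatin and CYM-5478, 159, 175, 158 and 194 FPKM with cisplatin, and 142, 143, 142 and 141 FPKM with vehicle. The vehicle libraries were almost equal (142 ± 0.633 FPKM), and all 8 libraries of cisplatin-treated rats were above them. Gstp1 rose with cisplatin by 0.26 (1.20-fold, SE 0.0691, adjusted p = 0.0346), and with CYM-5478 it was 0.16 above vehicle (adjusted p = 0.84). The call ended without any of the 4 vehicle libraries or without cisplatin replicate 2 or 4 (adjusted p from 0.0609 to 0.0874), and in TPM the change was 0.14 (adjusted p = 0.155).

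Gstt1 (ENSRNOG00000049771), of the theta class, had 7.44, 7.04, 8.35 and 6.83 FPKM with cisplatin and CYM-5478, 9.56, 8.70, 9.97 and 9.50 FPKM with cisplatin, and 6.24, 8.61, 5.76 and 7.80 FPKM with vehicle. Its cisplatin libraries were above all 8 others, by a small margin over vehicle replicate 2. It rose with cisplatin by 0.40 (1.32-fold, SE 0.113, adjusted p = 0.0444), and its change with CYM-5478 against cisplatin alone was -0.33, which did not pass the test (adjusted p = 0.102). Its call was the least stable of the 4: it held when vehicle replicate 4 or CYM-5478 replicate 3 was left out and ended, at adjusted p from 0.0516 to 0.0976, when vehicle replicate 1, 2 or 3, any cisplatin replicate, or CYM-5478 replicate 1, 2 or 4 was. In TPM its change was 0.29 (adjusted p = 0.116).

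Gsta4 (ENSRNOG00000030449) encodes the alpha class transferase that clears 4-hydroxynonenal, an aldehyde from oxidised lipids. It had 30.1, 36.7, 34.5 and 28.5 FPKM with cisplatin and CYM-5478, 50.1, 43.7, 46.1 and 56.8 FPKM with cisplatin, and 34.5, 38.5, 41.6 and 41.8 FPKM with vehicle. The cisplatin libraries were above all 8 others. Its mean was 32.4 ± 3.79 FPKM with CYM-5478, against 49.2 ± 5.74 FPKM with cisplatin alone, a fall by 0.59 on the log2 scale (0.663-fold, SE 0.100, adjusted p = 0.0395), the largest change of any of the 35 genes in the 3 comparisons. Cisplatin against vehicle gave 0.32 without passing the test (adjusted p = 0.059), and CYM-5478 against vehicle -0.27 (adjusted p = 0.84). The fall kept its call in TPM (-0.49, adjusted p = 0.00829) and lost it without vehicle replicate 1, cisplatin replicate 1 or 4, or CYM-5478 replicate 2, 3 or 4 (adjusted p from 0.0535 to 0.126, log2 change from -0.65 to -0.52 over the 12 libraries left out). In each fit that ended the call, 0 of all genes were called for that comparison.

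The other transferases did not pass the test. Mgst3, a microsomal enzyme at 156 ± 5.55 FPKM with cisplatin and CYM-5478, 152 ± 21.6 FPKM with cisplatin and 180.0 ± 17.6 FPKM with vehicle, had a cisplatin change of -0.25 (adjusted p = 0.116). Gstm4 had -0.21 (adjusted p = 0.133) and Gstt2 0.24 (adjusted p = 0.15). Gstm1, Gsto1 and Mgst1 had cisplatin changes of -0.09, 0.00 and 0.02.

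**Figure D3:**
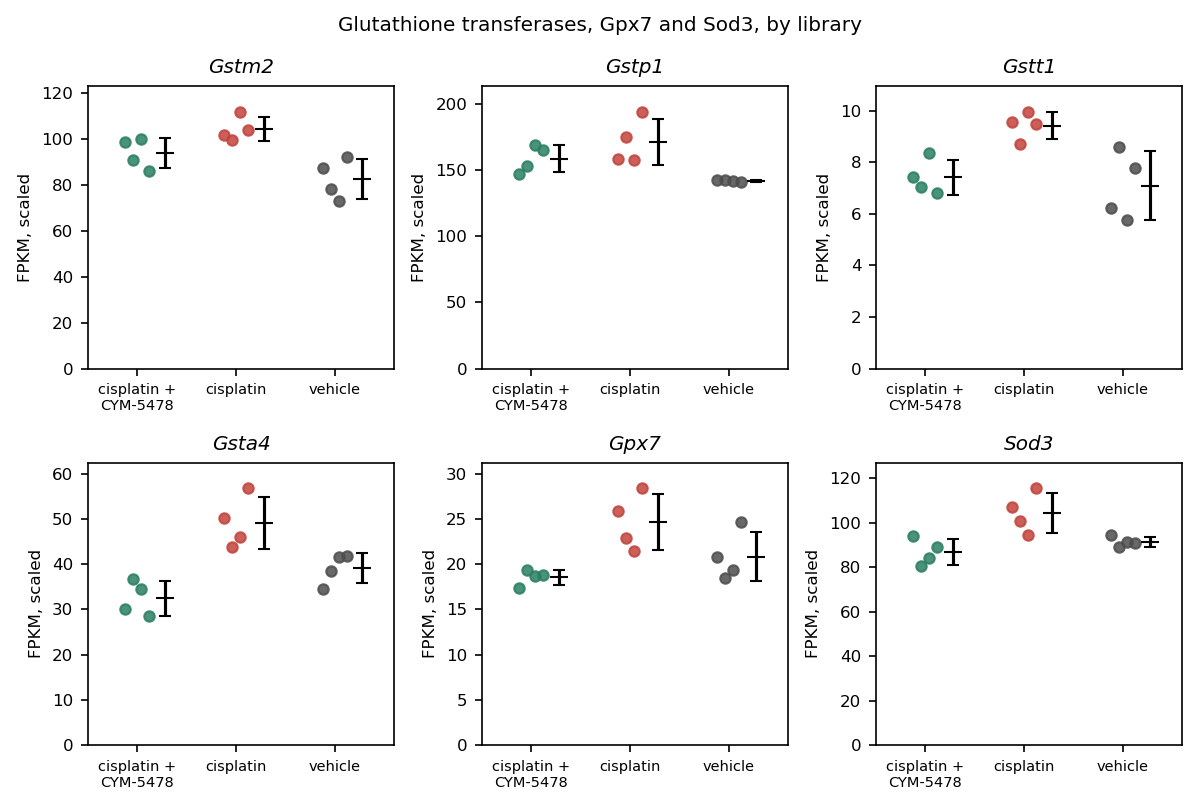
Scaled FPKM of Gstm2, Gstp1, Gstt1, Gsta4, Gpx7 and Sod3 in each library of the 3 groups, with the group mean and SD (n = 4) as black bars and each axis starting at 0. Cisplatin libraries are highest for Gstt1 (8.70 to 9.97 FPKM), Gsta4 (43.7 to 56.8 FPKM) and Sod3 (94.7 to 116 FPKM), and all libraries of cisplatin-treated rats are above vehicle for Gstp1.

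Among the peroxidases and dismutases, Gpx7 and Sod3 fell with CYM-5478 against cisplatin alone. Gpx7 (ENSRNOG00000009751), a peroxidase of the endoplasmic reticulum, had 17.4, 19.3, 18.7 and 18.8 FPKM with cisplatin and CYM-5478, 25.9, 22.9, 21.4 and 28.4 FPKM with cisplatin, and 20.8, 18.5, 19.4 and 24.7 FPKM with vehicle. The CYM-5478 libraries were all below the cisplatin libraries, and vehicle overlapped both groups. Its log2 change was -0.39 with CYM-5478 against cisplatin (0.762-fold, SE 0.0993, adjusted p = 0.0442) and 0.24 with cisplatin against vehicle (adjusted p = 0.141). The call ended without vehicle replicate 1 or 3, without cisplatin replicate 1 or 4, and without any 1 CYM-5478 replicate (adjusted p from 0.0545 to 0.128), and in TPM the change was -0.29 (adjusted p = 0.066).

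Sod3 (ENSRNOG00000003869) encodes the superoxide dismutase that is secreted into the extracellular matrix. It had 94.1, 80.5, 84.0 and 89.1 FPKM with cisplatin and CYM-5478, 107, 101, 94.7 and 116 FPKM with cisplatin, and 94.4, 89.0, 91.5 and 90.8 FPKM with vehicle. The cisplatin libraries were above all 8 others, by less than 1 FPKM at the nearest. Its log2 change was -0.26 with CYM-5478 against cisplatin (0.833-fold, SE 0.0656, adjusted p = 0.0428) and 0.19 with cisplatin against vehicle (adjusted p = 0.0835). The call ended without vehicle replicate 1, 3 or 4, cisplatin replicate 1, 2 or 4, or CYM-5478 replicate 2, 3 or 4 (adjusted p from 0.0512 to 0.13), and in TPM the change was -0.16 (adjusted p = 0.15).

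The intracellular dismutases and catalase did not pass the test. Cytosolic Sod1 ran from 241 to 292 FPKM with cisplatin and CYM-5478, 215 to 281 FPKM with cisplatin and 233 to 276 FPKM with vehicle, a change of 0.01 with cisplatin (adjusted p = 0.953). Mitochondrial Sod2 had 79.7 ± 3.12 FPKM with cisplatin and CYM-5478, 70.1 ± 5.01 FPKM with cisplatin and 79.3 ± 7.53 FPKM with vehicle. Its CYM-5478 libraries (77.3 to 84.2 FPKM) lay above its cisplatin libraries (63.1 to 74.5 FPKM) without a call (0.19, adjusted p = 0.133). Cat, whose product breaks down hydrogen peroxide in peroxisomes, had a change of 0.07 with cisplatin (adjusted p = 0.615). Gpx4, which reduces lipid hydroperoxides in membranes, had one of the narrowest intervals, a change of 0.00 with cisplatin from -0.12 to 0.13 on the log2 scale (adjusted p = 0.971). Gpx1, the main cytosolic peroxidase, spread widely within groups (131 to 214 FPKM with CYM-5478, 149 to 212 FPKM with cisplatin) and had a cisplatin change of 0.22 (adjusted p = 0.356).

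In the thioredoxin and peroxiredoxin systems 0 of 9 genes were called by limma in any comparison, with 5 at an unadjusted p under 0.05 for cisplatin against vehicle (28.4% of all genes) and 4 for CYM-5478 against cisplatin (24.6% of all genes). In TPM, Txnrd1 and 3 peroxiredoxins (Prdx2, Prdx3 and Prdx5) were called lower with cisplatin than with vehicle (log2 change from -0.38 to -0.22, adjusted p from 0.00392 to 0.0442). The same genes were called higher with CYM-5478 than with cisplatin alone (0.26 to 0.40, adjusted p from 0.00829 to 0.0239). Of all 16753 genes, TPM called 3177 lower in the former comparison and 2525 higher in the latter. Prdx2, an abundant cytosolic peroxiredoxin, averaged 336 ± 12.5 FPKM with cisplatin and CYM-5478, 293 ± 7.72 FPKM with cisplatin and 329.8 ± 19.4 FPKM with vehicle. Its cisplatin libraries (284 to 303 FPKM) lay below all 8 others, at -0.17 against vehicle (adjusted p = 0.0666) and 0.20 for CYM-5478 against cisplatin (adjusted p = 0.0558). Txnrd1, the reductase that recharges thioredoxin, averaged 27.4 ± 1.20 FPKM with cisplatin and CYM-5478, 24.6 ± 0.952 FPKM with cisplatin and 27.3 ± 1.26 FPKM with vehicle. Its cisplatin libraries were also below all others (-0.15, adjusted p = 0.0801, and 0.15, adjusted p = 0.0875). Txn1 itself averaged 659.9 ± 21.7 FPKM with cisplatin and CYM-5478, 712 ± 30.7 FPKM with cisplatin and 609 ± 71.3 FPKM with vehicle, with overlapping groups (0.23 with cisplatin, adjusted p = 0.082).

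Prdx5, found in mitochondria, peroxisomes and cytosol, had 139.5, 143, 147 and 139.5 FPKM with cisplatin and CYM-5478, 96.6, 132, 123 and 116 FPKM with cisplatin, and 135, 170.2, 134 and 122 FPKM with vehicle. Cisplatin replicate 1 was the lowest library, and the change with CYM-5478 against cisplatin was 0.29 (adjusted p = 0.118). Of its 2 transcripts, 1 (ENSRNOT00000050964) averaged 66.2 FPKM with cisplatin and CYM-5478, 49.6 FPKM with cisplatin and 72.2 FPKM with vehicle, a cisplatin change of -0.57 (SE 0.195, adjusted p = 0.088 over all transcripts). The other (ENSRNOT00000028687) averaged 75.7 FPKM with cisplatin and CYM-5478, 67.1 FPKM with cisplatin and 67.7 FPKM with vehicle, a change of -0.03 (adjusted p = 0.94). Prdx1, Prdx3, Prdx4 and Prdx6 had cisplatin changes of 0.02, -0.10, 0.05 and 0.14. Srxn1 had the widest interval of the 35 genes, from -0.88 to 0.13 around a cisplatin change of -0.38 (adjusted p = 0.308).

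Libraries that did not overlap between groups were counted beside the calls. For cisplatin against vehicle these were 9 of 35 genes (25.7%, against 18.3% of all genes, 6.81% higher and 11.5% lower): Gsta4, Gstm2, Gstp1, Gstt1 and Sod3 higher, and Gclm, Gsr, Txnrd1 and Prdx2 lower. For CYM-5478 against cisplatin they were 10 of 35 (28.6%, against 16.1% of all genes, 10.4% higher and 5.68% lower): Gclc, Gclm, Txnrd1, Prdx2, Prdx5 and Sod2 higher, and Gsta4, Gstt1, Gpx7 and Sod3 lower. For CYM-5478 against vehicle Gclc and Gstp1 were higher in all 4 libraries and 0 genes were lower (5.71%, against 3.45% of all genes, 1.69% higher and 1.76% lower).

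Markers of cell types moved with the groups, and in bulk samples fewer cells of a type and less RNA per cell cannot be told apart. The pan-neuronal score, the mean log2 difference of 18 markers from the vehicle mean, was -0.03 ± 0.18 with cisplatin and CYM-5478, -0.63 ± 0.308 with cisplatin and 0 ± 0.177 with vehicle (two-sided exact permutation p = 0.0286 for the first 2 groups and for the last 2, each 0.193 adjusted over 27 score comparisons). With cisplatin 15 of the 18 markers were called lower and 0 higher, against 7.98% of all genes lower and 2.73% higher. Their summed level was 6127 to 7707 FPKM with CYM-5478, 3030.4 to 5238 FPKM with cisplatin and 5937 to 8606 FPKM with vehicle. The fibroblast and matrix score was 0.05 ± 0.0289 with CYM-5478, 0.35 ± 0.0997 with cisplatin and 0 ± 0.166 with vehicle (exact permutation p = 0.0286 for both comparisons with cisplatin, each 0.193 adjusted). Of its 12 markers 6 rose with cisplatin, and their sum was 4017 to 4248 FPKM with CYM-5478, 4936 to 5876 FPKM with cisplatin and 3524 to 4484 FPKM with vehicle. The Schwann cell sum was 19101 to 26704 FPKM with CYM-5478, 25190.4 to 31346 FPKM with cisplatin and 19746 to 27986 FPKM with vehicle. Its score differed by 0.30 for cisplatin against vehicle and by -0.34 for CYM-5478 against cisplatin (exact permutation p = 0.0571 each, 0.257 adjusted). With cisplatin 1 of 15 Schwann cell markers was called higher by limma, all 15 changes were positive and 8 had an unadjusted p under 0.05. No marker of these 3 lists was at 0 in any library. The macrophage score was 0.34 higher with cisplatin than with vehicle and the endothelial score 0.19 higher (exact permutation p = 0.0857 and 0.2), and satellite glia differed by -0.05 (exact permutation p = 0.2). Limma called 0 of 12 macrophage markers with cisplatin (5 at an unadjusted p under 0.05), 1 of 11 endothelial markers, higher, and 4 of 13 satellite glia markers, of which Kcnj10, Aldoc and Ptprz1 fell (-0.50, -0.45 and -0.35) and Glul rose (0.20). For CYM-5478 against cisplatin, 8 of 18 pan-neuronal and 1 of 13 satellite glia markers were called higher (4.53% of all genes). Called lower were 2 of 12 fibroblast and matrix, 1 of 15 Schwann cell and 1 of 11 endothelial markers (1.09% of all genes). The neutrophil score reached 1.94 in CYM-5478 replicate 2 and -1.37 in replicate 3, red blood cell scores varied within every group, and cisplatin replicates 2 and 3 had the highest skeletal muscle scores, 1.79 and 0.80.

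With the pan-neuronal score added to the fit as a covariate, limma called 0 of the 35 genes with cisplatin against vehicle (5 at an unadjusted p under 0.05) and 0 with CYM-5478 against cisplatin (3 at an unadjusted p under 0.05). Of all genes it called 0 in both, with 1297 and 739 of 16753 at an unadjusted p under 0.05. The sizes of change differed by gene. With cisplatin, Gstm2, Gstp1 and Gstt1 had changes of 0.34, 0.34 and 0.53 in that fit (adjusted p = 0.572, 0.483 and 0.530), while Gclm had -0.12 (adjusted p = 0.785) and Sod3 0.04 (adjusted p = 0.965). With CYM-5478 against cisplatin, Gsta4 had -0.58 in that fit, while Gpx7 had -0.19, Sod3 -0.12 and Gclm 0.19 (adjusted p = 0.996 for each). Because the score itself differs between cisplatin and the other groups, treatment and neuronal RNA cannot be told apart in these libraries.

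**Figure D4:**
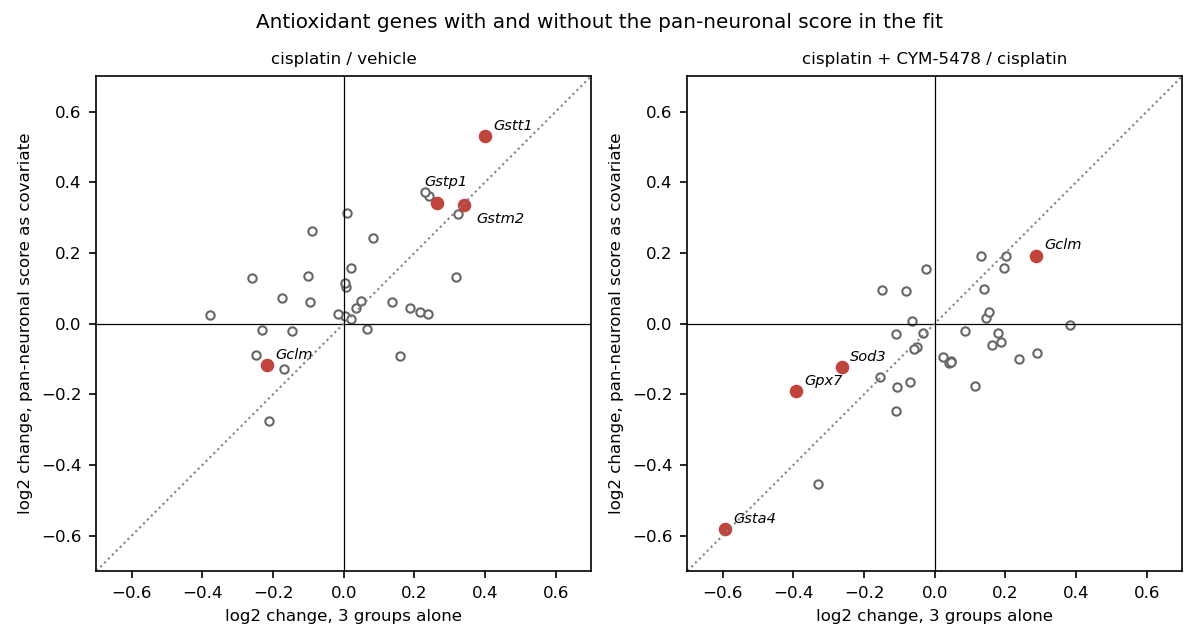
Log2 change of the 35 genes in the fit of the 3 groups alone (horizontal axis) and in the fit that adds the pan-neuronal score (vertical axis), for cisplatin against vehicle and cisplatin with CYM-5478 against cisplatin. Filled red points were called in the fit of the groups alone, and the dotted line marks equal changes. Gstm2, Gstp1, Gstt1 and Gsta4 lie near or outside the line, and Gclm, Gpx7 and Sod3 lie closer to 0 with the score.

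**Figure D5:**
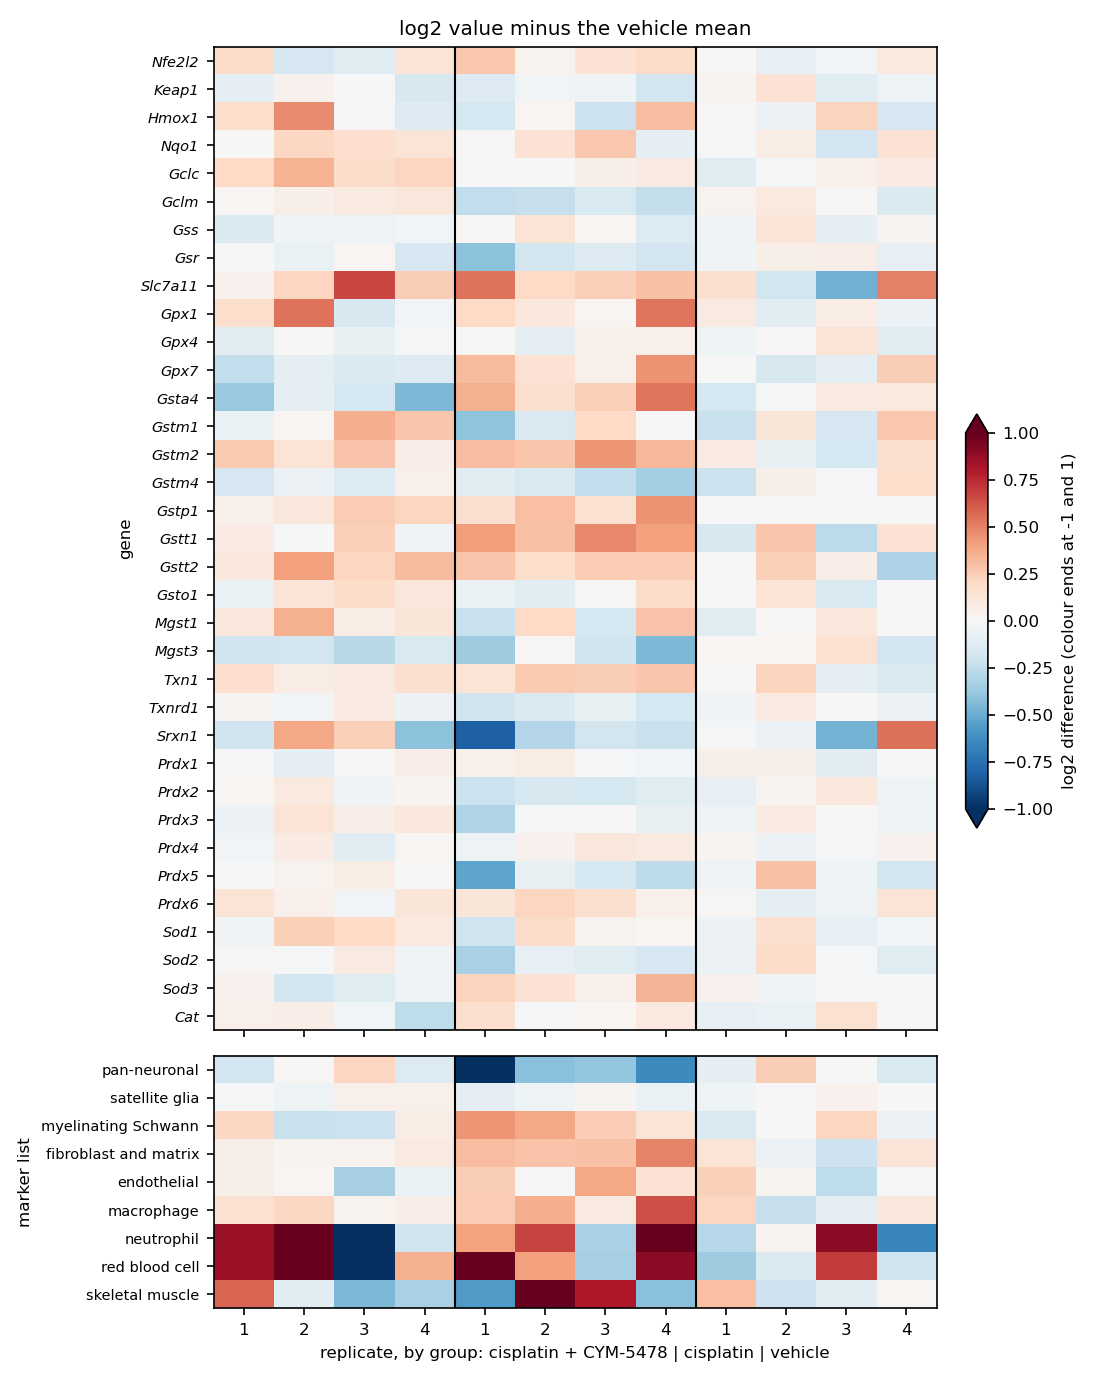
Log2 value minus the vehicle mean for the 35 genes (top) and scores of 9 marker lists (bottom) in each of the 12 libraries, with colours ending at -1 and 1. The 4 cisplatin columns are blue for Gclm and for the pan-neuronal score and red for Gsta4, Gstt1 and the fibroblast and matrix score.

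Genes of the same pathways outside the 37 were read from 7 lists by function. Of 93 tested, 3 rose and 6 fell with cisplatin against vehicle, 9.68% called, near the 10.7% of all genes (2.73% higher and 7.98% lower). In TPM 1 rose and 17 fell, against 117 higher and 3177 lower of all 16753 genes. The count of calls was 0 without vehicle replicate 2 or cisplatin replicate 4. Among 12 partners and regulators of NRF2, 3 fell and 0 rose, against 7.98% lower and 2.73% higher over all genes. Cand1, an exchange factor of cullin ubiquitin ligases, averaged 43.0 ± 1.66 FPKM with cisplatin and 51.2 ± 2.53 FPKM with vehicle (-0.25, limma adjusted p = 0.0205). Btrc, a ligase adaptor that recognises phosphorylated proteins, NRF2 among them, averaged 16.1 ± 1.42 FPKM with cisplatin and 20.0 ± 1.01 FPKM with vehicle (-0.31, adjusted p = 0.0276). Mafg, a small MAF protein that pairs with NRF2 on DNA, averaged 25.8 ± 0.922 FPKM with cisplatin and 29.4 ± 1.32 FPKM with vehicle (-0.19, adjusted p = 0.0299). Among 20 other NRF2 target and NADPH genes, Idh1 alone fell, the cytosolic isocitrate dehydrogenase that makes NADPH, with 43.7 ± 2.31 FPKM with cisplatin and 57.7 ± 5.73 FPKM with vehicle (-0.39, adjusted p = 0.0202).

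Of 22 other glutathione genes, 1 fell and 1 rose with cisplatin. Ggt7, of the gamma-glutamyltransferase family, fell by 0.62 on the log2 scale, with 20.3 ± 3.44 FPKM with cisplatin and 31.3 ± 3.19 FPKM with vehicle (adjusted p = 0.0202). Cth, which makes cysteine from cystathionine, rose by 0.59, with 4.81 ± 0.981 FPKM with cisplatin and 3.02 ± 0.528 FPKM with vehicle (adjusted p = 0.0383). Of 15 other thioredoxin, glutaredoxin and methionine sulfoxide genes, Glrx3, an iron-sulfur carrier, fell by 0.36 (adjusted p = 0.0171) and Txnip, which binds and inhibits thioredoxin, rose by 0.46 (adjusted p = 0.0189). Of 12 genes for selenoproteins or their synthesis, Selenok rose by 0.17 (limma adjusted p = 0.0311). Limma called 0 of 8 NADPH oxidase genes (1 at an unadjusted p under 0.05, Cyba, 0.41, adjusted p = 0.147). It also called 0 of 4 gene IDs of metallothioneins, proteins that bind metals through cysteines (2 at an unadjusted p under 0.05), of which Mt2A had 0.43 (adjusted p = 0.104).

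With CYM-5478 against cisplatin 3 of the 93 rose and 0 fell, 3.23% called, below the 5.62% of all genes (4.53% higher and 1.09% lower), and all 3 had fallen in the comparison of the same cisplatin libraries with vehicle. The count was 0 without vehicle replicate 1, cisplatin replicate 1 or 4, or CYM-5478 replicate 2, 3 or 4, and 5 without vehicle replicate 2. Over all genes it was 0 in the former fits and 989 without vehicle replicate 2. Ggt7 averaged 32.5 ± 4.39 FPKM with CYM-5478 and 20.3 ± 3.44 FPKM with cisplatin alone (0.67, adjusted p = 0.0395). Glrx3 averaged 76.6 ± 4.35 FPKM with CYM-5478 and 63.2 ± 4.07 FPKM with cisplatin alone (0.28, adjusted p = 0.0395). Cand1 averaged 49.9 ± 2.65 FPKM with CYM-5478 and 43.0 ± 1.66 FPKM with cisplatin alone (0.21, adjusted p = 0.0416). In the lists without a call, the smallest p belonged to Idh1 (0.29, adjusted p = 0.057), Selenon (-0.21, adjusted p = 0.216), Cyba (-0.28, adjusted p = 0.337) and Mt1 (-0.58, adjusted p = 0.134). Mt1 stands under 2 gene IDs, and this value belongs to 1 of them. All 4 metallothionein changes tested here were negative, with quartiles of -0.68 and -0.11. Against vehicle, 0 of the 93 were called by limma with CYM-5478 (6 at an unadjusted p under 0.05). The genes of smallest p in their lists were Maff, Nqo2, Hagh, Txndc17, Selenok, Cybb and Mt2A, with log2 changes of 0.15, 0.88, 0.22, 0.22, 0.15, 0.16 and 0.29 and adjusted p from 0.735 to 0.963.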

How the data were processed

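Directional libraries were made from rat dorsal root ganglion RNA after removal of ribosomal RNA, per the labels' protocols. Values are FPKM by transcript for each library, in a single table deposited by the authors that as used here holds 30275 transcripts of 25252 genes. Per the submitters' processing notes the build was Rnor_6.0 and the tools were STAR 2.7.8a, Bowtie2 2.0.6, DESeq2, FastQC and bcl2fastq 2.20, listed with no role or order. The program that made the FPKM, and whether counting used strand, are not given in the sources used here, so genes that overlap on opposite strands may share reads. FPKM scaling by total makes each value depend on the most abundant transcripts, and without counts no counting interval can be given.

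FPKM were summed by gene ID and scaled by median ratios over genes averaging at least 1 FPKM. Genes averaging at least 0.5 FPKM were fitted on log2(FPKM + 0.5) with limma 3.58.1 (R 4.3.3, variance trend) over all 12 libraries and 3 groups, with 9 residual degrees of freedom. Benjamini-Hochberg adjustment ran over all 16753 genes. Scores and FPKM sums were compared by two-sided exact permutation (scipy 1.17.1). The workflow was also run on simulated data with noise independent between genes. That run does not bear on how the calls shift when single libraries are left out. Promoters and sequences come from RefSeq tables of GRCr8. The tables matched 31 of the 37 symbols.

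Replicate numbers are those of the sample descriptions, which differ from the title numbers. Deviations from group means of same-numbered libraries correlated above 0.1 in 1 of 12 pairs by description and 1 of 7 pairs by title, so the numbers were not taken as pairing. The 37 genes and all lists were chosen with earlier results of these data known. Values per library are given for genes called in any comparison, for Nfe2l2, Keap1, Hmox1, Nqo1, Gclc and Gclm, and for Prdx5, which was chosen after its values were seen, as were the other genes whose means are printed. Outside the 37, up to 4 called genes of each list and comparison are named, or the 1 of smallest p. Alternatives varied the pseudocount (0.1 or 1), the filter (none or 2 FPKM), the scaling (none, quantile or TPM), the weights (array weights) and the libraries fitted (2 groups, or each library left out), or added a replicate block or the pan-neuronal score as covariate. Fits without the cisplatin libraries of highest muscle score (replicates 2 and 3), or without the CYM-5478 libraries of extreme neutrophil score (replicates 2 and 3), were chosen after seeing the data.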

Additional observations from a re-analysis of the deposited data

Results flagged for a closer look

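Of 105 groups of 4 libraries (35 genes in 3 groups), 3 held a library that stood apart from the other 3 by more of the group's range than Dixon's 95% critical ratio allows, while chance flags about 1 group in 20. Gclc was 19.1 FPKM in CYM-5478 replicate 2, with the nearest other library at 17.3 FPKM. Mgst1 was 37.2 FPKM in the same library, with the nearest other at 31.6 FPKM. That library also had the highest estimated depth (1.53 times that of vehicle replicate 1) and the highest neutrophil score (1.94), and the part of either in these values was not tested. Gclm was 35.3 FPKM in cisplatin replicate 3, with the nearest other at 33.3 FPKM.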

How the results depend on the processing

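Over 26 alternatives, 0 of the 8 called changes among the 35 genes turned sign, while 53 of the 97 uncalled gene and comparison pairs did so at least once and 17 were called under some alternative. For cisplatin against vehicle, the reported counts were 4 of the 35 genes, 9 other pathway genes and 1794 of all genes. In the same order, TPM gave 9, 18 and 3294, and both the block by title numbers and the pan-neuronal covariate gave 0, 0 and 0. Fitting 2 groups alone gave 1 of the 35 and 1019 of all genes. Leaving out each library in turn gave 0 to 5, 0 to 9 and 0 to 1846, the lowest for all genes without cisplatin replicate 4 (0) and vehicle replicate 2 (3), followed by cisplatin replicate 1 (776) and vehicle replicate 3 (1169). For CYM-5478 against cisplatin, the reported counts were 4, 3 and 941. No filter gave 0, 0 and 2, TPM 9, 16 and 2574, and array weights 2, 1 and 452. The block by title numbers, the covariate, fitting 2 groups alone, and leaving out CYM-5478 replicates 2 and 3 (chosen after seeing the data) each gave 0, 0 and 0. Other pathway genes numbered 7 with a filter of 2 FPKM, 5 after quantile normalization and 6 with the block by description numbers. Leaving out each library in turn gave 0 to 4, 0 to 5 and 0 to 1088. All genes gave 0 without any of the 6 libraries that ended the calls of Gclm, 436 without vehicle replicate 3 and 593 without vehicle replicate 4. For CYM-5478 against vehicle, 0 genes were called in the fit reported, 1 of all genes with 2 groups alone, 1 without CYM-5478 replicates 2 and 3, and 0 to 2 with single libraries left out (2 without CYM-5478 replicate 2). With the block by title numbers, 0 of the 35 were called in the first 2 comparisons, with smallest limma adjusted p of 0.228 and 0.0824. At an unadjusted limma p under 0.05 there were 9 and 12 of the 35, and 2535 and 3600 of all 16753 genes. Only vehicle replicate 2 has title number 2, so that library adds nothing to the group changes in this fit. The block by title numbers also leaves fewer residual degrees of freedom than the fit reported. The block by description numbers left 3 and 4 of the 35 called, and 1881 and 1304 of all genes. The cause of these shifts was not tested, and fits that leave libraries out also hold fewer samples. With 4 libraries a group, absolute depth unknown and changes mostly under 0.4 on the log2 scale, most of the 35 genes lie within reach of the threshold or below it, and a gene not called is not shown to be unaffected.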
